A study of Mus musculus with 24 samples.

Results

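Thyroid glands of Xb130-/- mice were compared with those of Xb130+/+ mice at 4 weeks of age (W4), the middle of 3 ages at which glands were collected. Both groups were male mice kept under specific pathogen-free conditions, with 4 mice and 1 array per mouse in each group, so the comparison rests on 8 of the 24 arrays of the series. The arrays were taken by the age and genotype in their sample labels, and all 23185 probe sets with 1 gene symbol, each of a different gene, were tested. Xb130-/- mice carry a constitutive deletion in every tissue, which is not limited to the gland or to thyrocytes, and Xb130+/+ mice are wild type. Mice are named here by genotype and a number from 1 to 4, which follows the order of the samples and links no mouse to another.

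Thyroid hormone is made by thyrocytes, which surround a lumen filled with thyroglobulin. Thyrotropin (TSH) from the pituitary binds its receptor on these cells and raises cyclic AMP, which drives iodide uptake from the blood at the basal membrane. At the apical membrane iodide leaves the cell and is bound to thyroglobulin with hydrogen peroxide made by the dual oxidases, and thyroglobulin is later taken up again and digested to release hormone. XB130, encoded by Afap1l2, has no known enzyme activity of its own and links other proteins, among them tyrosine kinases and the lipid kinase that activates AKT. When the gland releases little hormone, the pituitary secretes more TSH.

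The deposited values are log2 expression values, normalised together over all arrays, so a difference of 1 is a 2-fold change, and the number of arrays limits the precision. Differences are Xb130-/- minus Xb130+/+ and are given with their standard error (SE), with 4 mice in each group. A gene is described as higher or lower where the adjusted p of limma was under 0.05. At W4 2187 genes passed, which is 9.43% of those tested, with 1178 higher (5.08%) and 1009 lower (4.35%) in Xb130-/- glands. Counts of called members in the gene lists below are to be read against these shares. The median difference was −0.02 over all genes and the median size of a called difference was 0.41, and at least 2-fold changes were found for 157 higher and 43 lower genes. The 4 Xb130-/- values lay all above or all below the 4 Xb130+/+ values for 3295 genes, 14.2% of all (6.89% higher and 7.32% lower), and 1872 of these passed the test, while 315 genes passed although the mice overlapped. For a single gene with complete separation, an exact two-sided permutation test gives p = 0.0286, which is the smallest value that 4 mice in each group allow.

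A few mice stood apart and bear on what follows. Xb130+/+ mouse 4 lay nearest to the Xb130-/- mice in 534 of the 1178 higher genes (45.3%) and in 579 of the 1009 lower genes (57.4%), more often than each of the other Xb130+/+ mice, and without it 2305 genes passed. Xb130-/- mouse 3 had a mean of 8.12 over 15 thymocyte markers, against 6.14 to 6.52 in the other Xb130-/- mice and 6.22 to 6.79 in the Xb130+/+ mice. Without this mouse 1629 genes passed. Leaving out any other mouse except Xb130+/+ mouse 4 lowered the count as well, to between 1485 and 1839. Airway markers averaged 8.17 in Xb130-/- mouse 1 and 6.60 to 6.86 in the other 7 mice. Skeletal muscle markers ranged from 6.50 to 10.03 in Xb130+/+ and from 7.86 to 10.62 in Xb130-/- glands with no member called. The 15 thyrocyte markers averaged 11.24 to 11.33 in Xb130+/+ and 11.38 to 11.49 in Xb130-/- glands, with Tg at 13.91 or more and Tshr at 12.10 or more in every mouse, so both groups were rich in thyrocyte RNA. In whole glands, fewer cells of a type and less RNA per cell cannot be told apart.

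**Figure D1:**
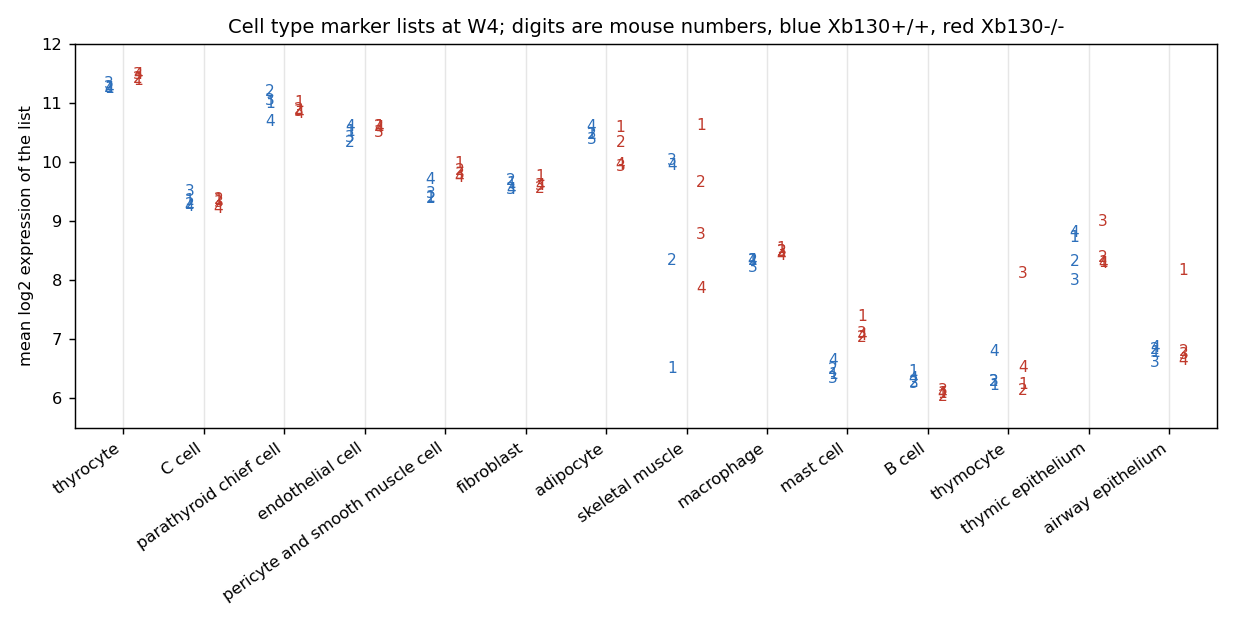
Mean log2 expression of the cell type marker lists shown (y axis) in the 8 W4 glands, by list (x axis). Each digit is the number of a mouse, in blue for Xb130+/+ and red for Xb130-/-, and the thymocyte list shows Xb130-/- mouse 3 at 8.12, the airway list Xb130-/- mouse 1 at 8.17, and the skeletal muscle list a wide spread in both genotypes.

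The targeted gene was checked before the other results. Afap1l2 read 10.92, 10.56, 10.79 and 10.41 in Xb130+/+ glands, against 8.97, 9.5, 9.07 and 9.11 in Xb130-/- glands. Each Xb130-/- gland was thus below each Xb130+/+ gland, but signal of the probe set remained, with a 2.84-fold lower mean (−1.51, SE 0.11, adjusted p = 1.08e-08). The probes are spread over the transcript, and how many of them lie in the deleted part was not analysed here. Of the 10 measured genes nearest to Afap1l2 on chromosome 19 on the Vwa2 side, 1 was called, Tcf7l2 at 0.37, close to the 9.43% of all genes. Of the 10 on the Ablim1 side, 4 were lower, against 4.35% of all genes, and 1 was higher. The lower ones were B230217O12Rik (−0.55), Fam160b1 (−0.39), Trub1 (−0.42) and Atrnl1 (−0.26), each with complete separation, and the higher one was Gfra1, the co-receptor through which GDNF signals to Ret. Among 10 measured relatives and partners of XB130, the kinase Src rose by 0.29 (SE 0.07, adjusted p = 0.00691) and the actin regulator Cttn by 0.20 (adjusted p = 0.0171), and the paralog Afap1l1 fell by 0.25 with overlapping mice. The call on Cttn was lost without Xb130+/+ mouse 3 and that on Afap1l1 without any of 5 mice. The paralog Afap1 (−0.08), Akt1 (0.03), Pik3r1 (−0.18), Rac1 (0.08), Ret (0.33), Sh3pxd2a (−0.17) and Yes1 (0.06) did not pass.

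Genes that take up and move iodide were higher in Xb130-/- glands. Of 9 measured genes of iodide transport 4 rose and none fell. Slc5a5, the sodium iodide symporter of the basal membrane, read 10.53, 11.35, 11.58 and 11.54 in Xb130+/+ and 12.58, 12.47, 12.56 and 12.90 in Xb130-/- mice. The groups did not overlap, and Xb130+/+ mouse 1 was the lowest of all. The difference was 1.38 (SE 0.21, adjusted p = 0.000146), a 2.60-fold higher mean. Ano1, a chloride channel that also passes iodide at the apical membrane, was 9.61 to 9.88 in Xb130+/+ and 10.58 to 10.89 in Xb130-/- mice (0.98, SE 0.08, adjusted p = 7.53e-08). Slc26a4, or pendrin, an anion exchanger of the apical membrane, was dimmer, at 5.14 to 5.4 and 6.11 to 6.53 (1.01, SE 0.12, adjusted p = 8.2e-06). Both genes had clearly separate groups with narrow spread. Kcnq1, a potassium channel that works with Kcne2 to sustain iodide uptake, rose by 0.46 (SE 0.08), while Kcne2 itself differed by 0.02. Not all transporters moved. Slc5a8 differed by 0.11, Cftr by 0.09 and Clcn5 by −0.21, none of them past the test. Slc26a7, an anion transporter required for iodide handling, read 13.31 to 13.36 in Xb130+/+ and 13.17 to 13.29 in Xb130-/- mice. Its groups did not overlap, but the difference of −0.11 did not pass (adjusted p = 0.136).

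**Figure D2:**
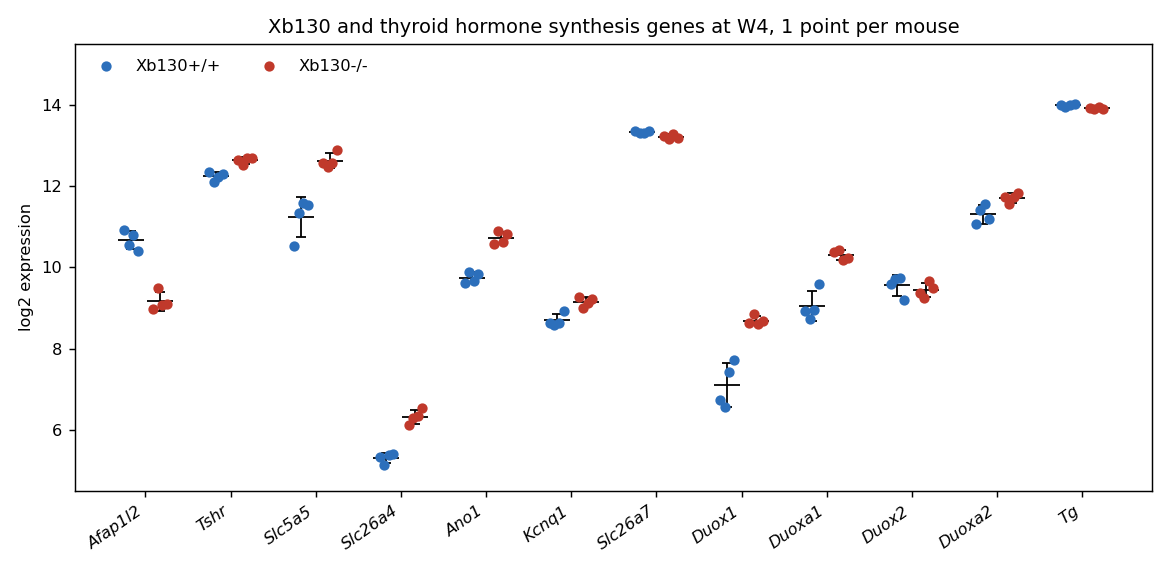
Log2 expression (y axis) of Afap1l2 and genes of thyroid hormone synthesis (x axis) in the 8 W4 glands, 1 point per mouse, blue for Xb130+/+ and red for Xb130-/-, with the mean and SD of each group in black. Slc5a5 lies at 10.53 to 11.58 in Xb130+/+ and 12.47 to 12.90 in Xb130-/- glands, whereas Duox2 overlaps between the genotypes.

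The machinery that makes hydrogen peroxide for iodination rose in part. Duox1, a dual oxidase, read 6.74, 6.57, 7.43 and 7.71 in Xb130+/+ and 8.63, 8.85, 8.6 and 8.68 in Xb130-/- mice. The Xb130-/- mice lay within a narrow band above the widely spread Xb130+/+ mice (1.58, SE 0.18, adjusted p = 4.34e-06). Duoxa1, which brings Duox1 to the cell surface, read 8.93, 8.72, 8.94 and 9.59 against 10.38, 10.43, 10.19 and 10.22, with Xb130+/+ mouse 4 the closest to the other genotype (1.26, SE 0.13, adjusted p = 2.11e-06). Duox2, the main dual oxidase of the gland, did not differ detectably (9.19 to 9.73 in Xb130+/+ and 9.25 to 9.66 in Xb130-/- mice, difference −0.11, SE 0.11). Its maturation factor Duoxa2 was 0.40 higher with overlapping mice (adjusted p = 0.0401), and this call was lost without any of 6 mice. Nox4, another NADPH oxidase, rose by 0.59 (SE 0.13, adjusted p = 0.00553), from 8.03 to 8.20 in Xb130+/+ to 8.48 to 9.25 in Xb130-/- mice. So 4 of 8 measured genes of iodination were higher and none lower, with 2 higher when the W4 arrays were fitted alone. Apart from Duox2, 3 further members did not pass, namely Gpx3, a peroxidase that removes hydrogen peroxide (−0.17), Iyd, which recovers iodide from iodotyrosines (0.08), and Tg. Tg, the hormone precursor, read 13.96 to 14.02 in Xb130+/+ and 13.91 to 13.94 in Xb130-/- mice and did not overlap, but the difference of −0.08 did not pass (adjusted p = 0.26). Its reading equalled, to 2 decimals, the highest value on each W4 array, where normalisation to a common distribution leaves little room for a difference.

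Of 44 measured genes of TSH receptor and cyclic AMP signalling, 11 were higher and 1 was lower, with a median of 0.07 over the list. Adcy8, a calcium-stimulated adenylyl cyclase that makes cyclic AMP, read 5.53, 5.35, 5.62 and 5.58 in Xb130+/+ and 7.01, 6.81, 7.19 and 7.23 in Xb130-/- mice, without overlap (1.54, SE 0.15, adjusted p = 1.02e-06). Adcy3 (0.51), Adcy7 (0.40) and Adcy4 (0.39) were also higher, and Adcy9, a cyclase insensitive to calmodulin, fell by 0.54 (SE 0.09). Of 11 measured phosphodiesterases, which degrade cyclic AMP, 4 rose and 7 were not called. Pde4d was 8.59 to 8.96 in Xb130+/+ and 9.58 to 9.89 in Xb130-/- mice (1.03, SE 0.08, adjusted p = 3.16e-08), Pde4c rose by 0.52, Pde4b by 0.44 and Pde8a by 0.27. The receptor gene Tshr was 12.10 to 12.36 against 12.52 to 12.69, a 1.31-fold difference (0.39, SE 0.09, adjusted p = 0.00522). Prkar1a, the regulatory subunit of protein kinase A, rose by 0.16 and the arrestin Arrb2 by 0.25. With the W4 arrays fitted alone, or without Xb130+/+ mouse 3, 5 genes of this list were higher, and 7 were without Xb130-/- mouse 2, 3 or 4.

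Few genes of hormone release and action were called. Of 12 genes of release and deiodination, the deiodinase Dio1 rose by 0.31 (12.26 to 12.46 against 12.58 to 12.72) and the thyroglobulin-digesting protease Ctsl by 0.29 (12.66 to 12.99 against 13.08 to 13.14). Slc16a10, a membrane transporter of thyroid hormone and aromatic amino acids, read 9.59 to 9.94 and 8.91 to 9.53, a decrease (−0.63, SE 0.15, adjusted p = 0.00766). None of these 3 genes overlapped between groups. Of 7 thyroid transcription factors, Foxe1 alone was called. It fell by 0.38 (SE 0.06, adjusted p = 0.000178), from 10.22 to 10.43 in Xb130+/+ to 9.85 to 9.95 in Xb130-/- mice. Among 11 genes of hormone receptors and response, Thrsp, a lipogenic gene induced by thyroid hormone in liver, was 10.17 to 10.44 against 8.88 to 9.44 (−1.21, SE 0.26, adjusted p = 0.00371). The receptor Thrb was lower (−0.54), with overlapping mice, as was Me1, which makes NADPH for lipid synthesis (−0.24), and Dio1 was the member that rose.

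The largest increases among genes that passed with separate groups were 4.42-fold to 64.2-fold over 15 genes, and 3 of them were the Dcpp genes. Dcpp1, Dcpp2 and Dcpp3, neighbours on chromosome 17, encode closely related proteins secreted by the mouse salivary gland, where they were named for demilune cells and parotid protein. Dcpp2 read 4.10, 4.01, 4.17 and 6.80 in Xb130+/+ and 10.04, 11.77, 10.31 and 10.99 in Xb130-/- mice (6.0, SE 0.51, adjusted p = 9.53e-08). Dcpp1 read 6.43, 6.70, 7.0 and 9.78 against 12.20, 13.09, 12.53 and 12.67, a 35.4-fold difference. Dcpp3 read 7.95, 7.56, 8.69 and 11.74 against 13.45, 13.83, 13.48 and 13.73, a 24.8-fold difference. In all 3 genes Xb130+/+ mouse 4 stood well above the other Xb130+/+ mice and below each Xb130-/- mouse. Probes of such near-identical genes may read each other's RNA, so the share of each gene is uncertain. Among 15 salivary gland markers 4 were higher, the 3 Dcpp genes and the water channel Aqp5 (10.21 to 10.71 against 11.52 to 11.90, 1.28), and 11 were not called. The median difference of the list was 0.07. Its mean was 5.23 to 5.96 in Xb130+/+ and 6.56 to 7.0 in Xb130-/- glands, but over the 12 markers other than the Dcpp genes it was 5.0 to 5.75 and 5.23 to 5.56, with overlap.

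The 250 bases before the annotated start of each Dcpp gene, from RefSeq on the plus strand of GRCm38.p6, are shown because the copies moved together. They lie at chr17:23880626-23880875 for Dcpp1, chr17:23898472-23898721 for Dcpp2 and chr17:23917208-23917457 for Dcpp3. Within the stretch where 2 windows overlap in their alignment, capitals mark bases that at least 1 of the other copies does not match, 10 in Dcpp1, 9 in Dcpp2 and 9 in Dcpp3, and bases at the ends that have no counterpart in another window stay in lower case.
Dcpp1: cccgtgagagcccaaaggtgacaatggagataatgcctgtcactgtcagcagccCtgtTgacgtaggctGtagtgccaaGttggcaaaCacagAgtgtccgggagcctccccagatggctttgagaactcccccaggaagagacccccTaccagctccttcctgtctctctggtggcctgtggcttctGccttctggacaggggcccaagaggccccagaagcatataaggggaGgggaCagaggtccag
Dcpp2: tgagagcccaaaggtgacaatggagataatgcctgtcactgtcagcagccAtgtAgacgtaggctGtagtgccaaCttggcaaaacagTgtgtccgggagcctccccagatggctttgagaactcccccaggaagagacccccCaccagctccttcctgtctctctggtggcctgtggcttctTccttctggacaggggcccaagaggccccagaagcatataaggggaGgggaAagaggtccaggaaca
Dcpp3: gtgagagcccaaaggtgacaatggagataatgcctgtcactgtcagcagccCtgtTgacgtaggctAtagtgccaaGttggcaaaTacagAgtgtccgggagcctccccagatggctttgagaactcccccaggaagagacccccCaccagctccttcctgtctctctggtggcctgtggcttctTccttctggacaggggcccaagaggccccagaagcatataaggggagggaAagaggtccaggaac
Dcpp1 and Dcpp2 were identical in 96.7% of the columns where their windows overlap, Dcpp1 and Dcpp3 in 97.6%, and Dcpp2 and Dcpp3 in 97.2%.

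After the Dcpp genes the largest increase was that of Adm2, which encodes intermedin, a peptide of the calcitonin family that acts through the receptor Calcrl and its partners, the Ramp proteins. Adm2 read 7.42, 7.48, 7.62 and 8.04 in Xb130+/+ and 11.07, 11.40, 11.03 and 12.07 in Xb130-/- mice (3.75, SE 0.23, adjusted p = 1.88e-09). Its relative Adm fell by 0.60, from 7.26 to 7.65 to 6.66 to 7.11 (adjusted p = 0.0258), a call that was lost without any of 4 mice. Of the receptor components, Ramp3 rose by 0.52 (8.95 to 9.23 against 9.44 to 9.77, adjusted p = 0.000417), while Calcrl (−0.09), Calcr (0.13), Ramp1 (0.34) and Ramp2 (0.20) did not pass. Neither of the peptide genes Calcb (0.12) and Iapp (−0.11) was called.

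Cyp27b1, the enzyme that makes active vitamin D from its circulating precursor, read 8.81, 8.61, 8.96 and 9.06 in Xb130+/+ and 11.85, 12.22, 11.98 and 12.04 in Xb130-/- mice. Both groups were tight and far apart (3.16, SE 0.24, adjusted p = 2.96e-08), and no mouse stood out. Cyp24a1, which degrades active vitamin D and is a classic target of its receptor, was 5.35 to 5.47 in Xb130+/+ and 5.31 to 5.62 in Xb130-/- mice (0.04, SE 0.12). The receptor Vdr differed by 0.05 with wide overlap. The calcium channel Trpv6 was lower, at 9.17 to 9.27 in Xb130+/+ and 8.22 to 8.80 in Xb130-/- mice (−0.71, SE 0.10, adjusted p = 7.44e-05). The calcium-binding proteins Calb1 (0.02) and S100g (0.39), the uptake receptor Cubn (0.00) and the hydroxylases Cyp27a1 (0.00) and Cyp2r1 (0.13) did not pass.

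Several of the remaining large increases belong to metabolism. Acsbg1, an acyl-CoA synthetase, was 7.12 to 8.5 against 10.40 to 11.68 (10.8-fold), and Bcat1, the cytosolic enzyme that transaminates branched-chain amino acids, was 6.35 to 7.69 against 8.94 to 9.99 (6.24-fold). Car15, a membrane-bound carbonic anhydrase, was 6.96, 7.08, 7.60 and 9.13 against 10.26 to 10.84 (6.83-fold), with Xb130+/+ mouse 4 again the highest of its group. Slc34a2, a sodium-phosphate cotransporter of the apical membrane of epithelia, was 6.90 to 8.22 against 9.39 to 9.99 (4.61-fold). The others encode structural, secreted or regulatory proteins. Foxf2, a forkhead transcription factor of mesenchyme, was 5.82 to 5.98 against 8.32 to 9.05, a difference of 2.74 (SE 0.17). Cnmd, a cartilage glycoprotein that inhibits vessel growth, was 7.62 to 8.86 against 10.63 to 11.12 (6.86-fold), and it was the only gene of 14 chondrocyte markers that rose, while Col9a1 fell. Dapl1 (6.13-fold), the uroplakin-related Upk3bl (5.41-fold), the desmosomal plaque protein Pkp1 (4.56-fold) and Gfra1 (4.42-fold) completed the group. Calls on all 15 increases held when each W4 mouse was left out in turn, but Xb130+/+ mouse 4 was the highest of its group in all 15.

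**Figure D3:**
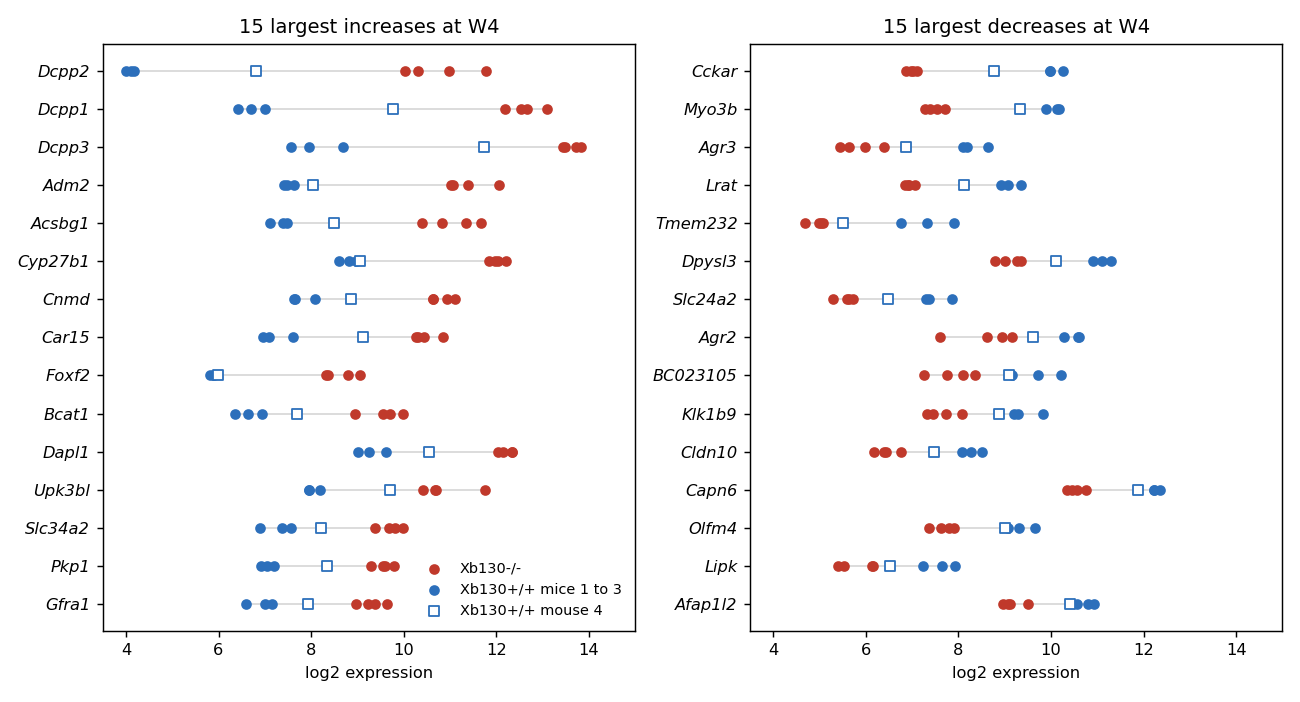
Log2 expression (x axis) in the 8 W4 glands for the 15 largest increases (left) and the 15 largest decreases (right), 1 gene per line. Red points are Xb130-/- mice, filled blue points Xb130+/+ mice 1 to 3 and open squares Xb130+/+ mouse 4, which lies nearest to the Xb130-/- mice in all 15 increases and all 15 decreases.

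The largest decreases were smaller, 2.84-fold to 6.71-fold over 15 genes. Cckar, the receptor for cholecystokinin, read 10.25, 9.98, 9.97 and 8.76 in Xb130+/+ and 7.02, 6.87, 7.11 and 6.97 in Xb130-/- mice (−2.75, SE 0.23, adjusted p = 7.53e-08). Xb130+/+ mouse 4 again lay between the other mice of its genotype and the Xb130-/- mice. Myo3b, a motor of actin-filled protrusions, was 9.32 to 10.18 against 7.27 to 7.70 (5.33-fold). Both members of the Agr family of disulfide isomerases of the endoplasmic reticulum that were measured fell, Agr3 4.26-fold (6.86 to 8.64 against 5.43 to 6.39) and Agr2 3.23-fold (9.60 to 10.60 against 7.60 to 9.15). Neither gene overlapped between the groups. Lrat, which esterifies retinol for storage, was 8.12 to 9.35 against 6.84 to 7.06 (3.83-fold), and the tight junction gene Cldn10 was 7.48 to 8.51 against 6.18 to 6.75 (3.13-fold). Capn6, a calpain without protease activity, was 11.87 to 12.35 against 10.35 to 10.76 (−1.64, SE 0.09), and its adjusted p of 7.17e-10 was among the smallest of all genes. Dpysl3, a cytoskeletal protein of growing neurites (3.34-fold), the cation exchanger Slc24a2 (3.23-fold), BC023105 (3.20-fold), Tmem232 (3.80-fold), the secreted glycoprotein Olfm4 (3.01-fold), the lipase Lipk (2.88-fold) and Klk1b9 (3.16-fold) made up the rest, with Afap1l2.

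Klk1b9 is a member of the kallikrein cluster of chromosome 7, serine proteases that are abundant in the mouse submandibular gland and that share much of their sequence. All 11 measured Klk1b genes had negative differences, from −1.66 to −0.16, and 4 of them passed. Klk1b9 read 9.28, 9.82, 9.21 and 8.87 in Xb130+/+ and 7.72, 7.45, 8.07 and 7.31 in Xb130-/- mice. Klk1b26 (−1.34), Klk1b1 (−1.20) and Klk1b24 (−0.90) also fell without overlap, but each of these 3 calls was lost without Xb130+/+ mouse 2 and without Xb130-/- mouse 4, and that on Klk1b26 also without Xb130+/+ mouse 1 or Xb130-/- mouse 3 and that on Klk1b24 without Xb130+/+ mouse 1. The highest value of Klk1b26, Klk1b1 and Klk1b24 was in each case that of Xb130+/+ mouse 2. Since the probes may read several of these copies, the 11 values are not 11 separate measurements. The Dcpp genes, which rose, are also salivary gland genes.

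The genes with the smallest adjusted p values were mostly among those above, with 4 exceptions. Hsd11b2, which inactivates glucocorticoids, was 8.29 to 8.78 against 9.83 to 10.07 (1.49, SE 0.09, adjusted p = 1.88e-09). Kif1a, a motor that carries vesicles along microtubules, was 7.48 to 7.81 against 9.04 to 9.56 (1.65, SE 0.11), and F930015N05Rik was 5.19 to 5.57 against 7.06 to 7.23 (1.70, SE 0.09, adjusted p = 7.11e-10). Bbox1, the last enzyme of carnitine synthesis, fell by 1.36 (5.85 to 6.46 against 4.76 to 5.05). These 4 genes showed narrow groups without overlap.

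Immediate-early genes, which are transcribed within minutes of a stimulus without new protein synthesis, were mostly higher. Of 25 measured, 16 rose and none fell, and the median was 0.62 against −0.02 over all genes. The mean of the list was 9.15 to 9.33 in Xb130+/+ and 9.72 to 9.91 in Xb130-/- glands, so the mice did not overlap. Atf3, a stress-induced repressor, read 7.93, 7.80, 7.59 and 8.07 in Xb130+/+ and 8.84, 10.06, 9.21 and 9.24 in Xb130-/- mice (1.49, SE 0.22, adjusted p = 0.000115). Dusp1, a phosphatase that inactivates MAP kinases, read 11.66, 11.38, 11.17 and 11.59 against 12.46, 12.45, 12.41 and 12.52 (1.01, SE 0.13, adjusted p = 3.2e-05). The 4 Xb130-/- readings of Dusp1 were nearly alike, whereas those of Atf3 ranged widely with mouse 2 the highest. Maff (0.92), Egr2 (0.87), Btg2 (0.87), Klf4 (0.84), Fosb (0.83), Nr4a1 (0.76), Fosl1 (0.76), Junb (0.68), Ier3 (0.64) and Fosl2 (0.62), all regulators of transcription or growth, rose. The kinase Sik1, which is induced by cyclic AMP, was 10.66 to 10.84 against 11.46 to 11.83 (0.87, SE 0.09, adjusted p = 1.91e-06). Fos, the best known of these genes, was 7.50 to 8.20 against 7.98 to 8.69 with overlap (0.52, adjusted p = 0.135), and Egr1 differed by 0.33 (adjusted p = 0.278). The call on Fosb was lost without Xb130-/- mouse 2, and between 14 and 18 members were higher when each W4 mouse was left out in turn.

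Cyclic AMP acts on many of these genes through a promoter element, the palindrome TGACGTCA, which reads the same on both strands. It was searched from 250 bases before to 50 after each annotated start in RefSeq (GRCm38.p6). Only this exact sequence was counted, so a window without a match may still hold another form of the element. The palindrome was found in 1.79% of all windows, in 2.03% of all genes of the table and in 2.58% of the 17452 tested genes with a window. Of the 16 higher immediate-early genes 13 had a window, and 3 of them held the element (Btg2, Dusp1 and, in 1 of its 3 windows, Maff). It was held by 25 of 915 higher genes (2.73%) and by 20 of 798 lower genes (2.51%) with a window, so both shares were close to that of the tested genes. Hs3st3a1, the most increased enzyme of heparan sulfate synthesis, is also among the 25 higher genes that hold it. The others outside the immediate-early list are not named. The promoters are printed for Btg2, Dusp1, Maff and Hs3st3a1 over the 200 bases before the start, with the element in capitals. They lie at chr1:134079156-134079355 on the minus strand for Btg2, chr17:26508473-26508672 on the minus strand for Dusp1, chr15:79347320-79347519 on the plus strand for Maff and chr11:64435132-64435331 on the plus strand for Hs3st3a1.
Btg2: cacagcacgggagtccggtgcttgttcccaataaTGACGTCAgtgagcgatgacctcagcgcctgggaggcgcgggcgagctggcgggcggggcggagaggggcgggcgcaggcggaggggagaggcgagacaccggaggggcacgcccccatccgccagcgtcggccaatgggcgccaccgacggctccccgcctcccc
Dusp1: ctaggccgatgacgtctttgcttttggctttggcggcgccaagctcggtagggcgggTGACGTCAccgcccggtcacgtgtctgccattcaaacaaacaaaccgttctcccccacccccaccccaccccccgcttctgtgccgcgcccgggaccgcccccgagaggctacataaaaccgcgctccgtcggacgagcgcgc
Maff: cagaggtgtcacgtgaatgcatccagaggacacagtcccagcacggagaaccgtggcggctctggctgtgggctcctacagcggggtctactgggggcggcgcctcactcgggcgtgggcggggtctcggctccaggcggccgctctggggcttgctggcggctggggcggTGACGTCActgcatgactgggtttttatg
Hs3st3a1: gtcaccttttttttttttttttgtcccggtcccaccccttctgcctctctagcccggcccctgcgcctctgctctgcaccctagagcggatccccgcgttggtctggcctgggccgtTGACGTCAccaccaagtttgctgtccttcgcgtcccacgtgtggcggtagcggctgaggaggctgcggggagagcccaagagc
The element began 166 bases before the start of Btg2, 143 before that of Dusp1, 29 before that of Maff and 83 before that of Hs3st3a1. A match is a description of the sequence and does not show that a factor bound there.

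Genes of the amino acid response, many of them targets of the transcription factor ATF4, moved little as a group. Of 33 measured 5 rose and 2 fell, and the median was 0.11. Bcat1 (2.64) stood far above the other higher members, Sesn2 (0.44), Stc2 (0.43), Vldlr (0.36) and Slc38a2 (0.26). There were 3 higher members without Xb130+/+ mouse 2 or 3 and with the W4 arrays alone. The serine synthesis genes Psat1 (−0.35) and Psph (−0.28) were lower, but both calls were lost without any of 6 mice. The composite element TGATGNAA, searched on both strands in the same windows, was found in 8 of 28 genes of this list (28.6%), against 4.51% of all genes of the table, 3.84% of tested genes, 2.84% of higher and 4.26% of lower genes.

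Targets and partners of the transcription factors YAP and TEAD, which respond to cell shape and tension, were higher in 12 of 22 cases and lower in 1. Ccn1, a secreted matrix-associated signal and a classic YAP target, read 8.52, 8.59, 7.97 and 8.90 in Xb130+/+ and 9.71, 9.90, 10.05 and 9.53 in Xb130-/- mice (1.30, SE 0.16, adjusted p = 1.1e-05). Its relative Ccn2 was 11.98 to 12.85 against 13.30 to 13.37 (0.79, SE 0.13). The 4 Xb130-/- readings of Ccn2 lay within a narrow band. The kinase Nuak2 was 7.85 to 8.32 against 9.22 to 9.5 (1.19, SE 0.09, adjusted p = 4.66e-08), and the transcription factor Tead2 was 8.54 to 8.61 against 9.07 to 9.42 (0.67). F3 (0.49), Ajuba (0.46), Tead4 (0.32), Wwtr1 (0.28), Axl (0.27) and Ptpn14 (0.22) rose as well, whereas Ankrd1, another classic target, differed by −0.20 with wide overlap. Fitted on the W4 arrays alone, 6 members were higher.

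Of 32 measured matrix glycoproteins and cross-linking enzymes 12 were higher and none lower, with a median of 0.27. Loxl4, an enzyme that cross-links collagen and elastin, was 8.20 to 8.45 in Xb130+/+ and 9.26 to 9.77 in Xb130-/- mice (1.23, SE 0.13, adjusted p = 1.93e-06). Tgfbi, a matrix protein induced by TGF-beta, was 10.93 to 11.36 against 12.00 to 12.23 (1.09, SE 0.10), and Mfap5, a component of microfibrils, was 10.18 to 10.59 against 11.02 to 11.47 (0.95, SE 0.11). All 3 genes separated the groups completely. With the W4 arrays alone 6 members were higher. Lox rose by 0.76 with overlapping mice, and Fmod by 0.64. Over all genes tested 5.08% were higher and 4.35% lower. Of 44 collagens 4 rose, among them Col25a1 (1.15), Col8a1 (0.82) and Col28a1 (0.72), and Col4a6 (−0.44) and Col9a1 (−0.43) fell. In the basement membrane list of 17 genes, Lama3 alone rose (0.78) and Lamc3 alone fell (−0.62), counts close to the shares over all genes. Integrins, the receptors for these proteins, were higher in 6 of 26 cases, with Itga2 (1.16) and the epithelial Itgb6 (0.90) most, and Itga4 fell by 0.77. Without Xb130+/+ mouse 2, 3 integrins were higher. Proteases and inhibitors of the matrix were higher in 6 of 25 cases, among them Timp1 (1.02), the plasminogen activator Plat (0.98) and the urokinase receptor Plaur (0.99). Plat and Plaur are also among 7 of 29 coagulation and fibrinolysis genes that rose, with F5 at 0.80, while F8 fell by 0.40.

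**Figure D4:**
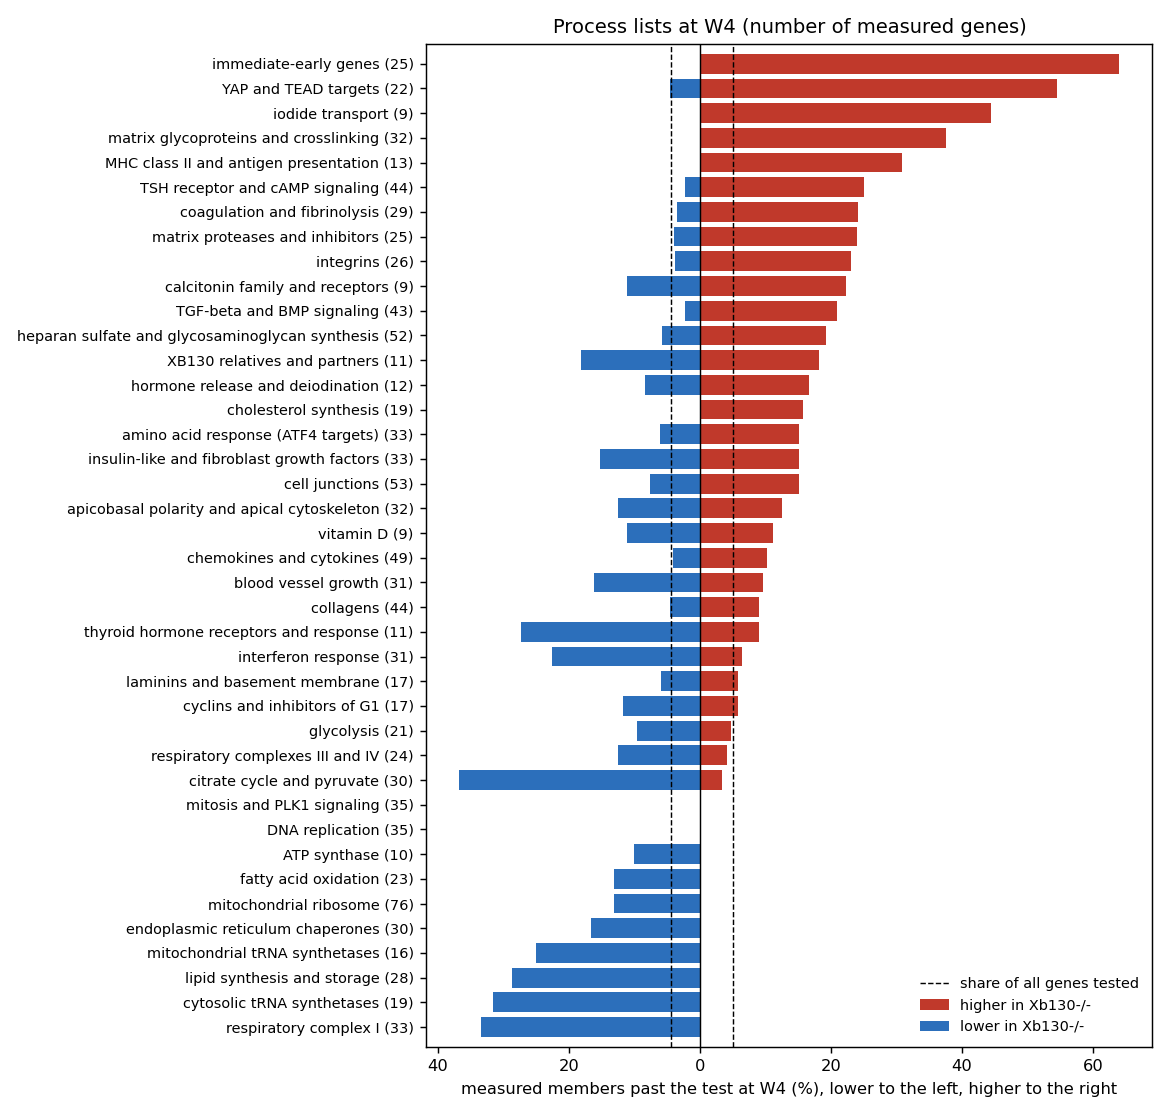
Percentage of the measured members of each process list shown that passed the test at W4 (x axis, bars to the right for higher and to the left for lower in Xb130-/- glands), by list with its number of measured genes (y axis). Dashed lines give the shares over all genes tested, 5.08% higher and 4.35% lower, and immediate-early genes, with 16 of 25 higher, have the longest bar to the right.

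Enzymes and core proteins of heparan sulfate and other glycosaminoglycans were higher in 10 of 52 cases and lower in 3. Hs3st3a1, a sulfotransferase that adds a late modification to heparan sulfate, read 6.39, 6.15, 6.34 and 6.93 in Xb130+/+ and 8.10, 8.14, 8.14 and 8.05 in Xb130-/- mice (1.66, SE 0.13, adjusted p = 2.96e-08). The Xb130-/- mice were almost alike and Xb130+/+ mouse 4 was the nearest to them. The core proteins Gpc6 (1.06), Gpc1 (0.65) and Sdc1 (0.53) and the chondroitin synthase Chsy1 (0.49) rose. Has3, a hyaluronan synthase, was 6.79 to 6.99 against 6.16 to 6.28 (−0.65, SE 0.14), and Csgalnact1 fell by 0.42. The list had 6 higher members without Xb130+/+ mouse 3 and also with the W4 arrays alone. In the TGF-beta and BMP list 9 of 43 were higher, including the ligands Bmp6 (0.86) and Inhbb (0.60) and the inhibitory Smad6 (0.60), Smad7 (0.61) and Skil (0.59), and the co-receptor Tgfbr3 was lower (−0.33). Bmp6 was 7.78 to 7.92 in Xb130+/+ and 8.36 to 9.23 in Xb130-/- mice, with Xb130-/- mouse 2 the highest. The call on Smad7 was lost without any of 5 mice, and 5 members of the list were higher with the W4 arrays alone.

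Cell junction genes moved both ways, with 8 higher and 4 lower of 53. Cldn1, a sealing claudin, was 8.13 to 8.91 in Xb130+/+ and 9.29 to 9.70 in Xb130-/- mice (0.99, SE 0.16, adjusted p = 0.000247), and the adhesion protein Nectin3 was 7.61 to 8.10 against 8.44 to 8.81 (0.83, SE 0.10). Cldn6 (0.79), Cldn4 (0.47) and Cldn3 (0.38) were higher as well. On the other side, Cldn10, a claudin that forms ion pores, fell by 1.65, the desmosomal cadherin Dsc2 by 0.63 and Cldn8 by 0.43. With the W4 arrays alone 5 junction genes were higher and 2 lower. Of 32 genes of apicobasal polarity and the apical cytoskeleton 4 rose, Dlg5 (0.40) and Mpp5 (0.40) most, and 4 fell, of which Myo3b (−2.41) was the largest and the actin regulators Eps8 and Espn were both at −0.41. Apart from Myo3b these were small differences, and 2 in each direction were called without Xb130+/+ mouse 1, Xb130+/+ mouse 2 or Xb130-/- mouse 4 and with the W4 arrays alone, while 2 were higher also without Xb130-/- mouse 2.

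Growth factor and receptor genes were higher in 5 of 33 cases and lower in 5. Met, the receptor for hepatocyte growth factor, read 10.02, 10.18, 10.15 and 9.85 in Xb130+/+ and 8.89, 8.94, 8.67 and 8.76 in Xb130-/- mice, a tight and complete separation (−1.23, SE 0.10, adjusted p = 9.2e-08). The ligands of the EGF receptor Ereg (6.21 to 6.93 against 7.58 to 7.83, 1.05) and Btc (7.84 to 7.95 against 8.59 to 8.77, 0.82) rose, as did Egfr itself (10.14 to 10.39 against 10.66 to 10.82, 0.46). All 3 separated the groups. Erbb3 (0.47) and Erbb2 (0.25) were higher and Erbb4 (−0.69), Fgf10 (−0.64), Fgf1 (−0.28) and Tgfa (−0.25) lower. Of the 5 increases 3 were called without Xb130+/+ mouse 1 or Xb130-/- mouse 4, with the W4 arrays alone and with arrays scaled by their medians. Without Xb130+/+ mouse 1, Xb130+/+ mouse 2 or Xb130-/- mouse 4 and with the W4 arrays alone, 1 decrease was called, and 2 or 3 were without any other mouse but Xb130+/+ mouse 4. Of 31 genes of vessel growth 3 rose, Pgf most (0.61), and 5 fell, Nrp2 most (−0.67), but without Xb130+/+ mouse 1 or Xb130-/- mouse 4 only 1 was lower, and 2 or 3 were without Xb130+/+ mouse 2, 3 or 4 or Xb130-/- mouse 1 or 2. With the W4 arrays alone 1 was higher and 2 were lower. Among 17 cyclins and inhibitors, Cdkn1a, which halts the cell cycle, was 11.40 to 11.83 against 12.22 to 12.59 (0.76, SE 0.13), and Cdk6 fell by 0.35.

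Genes of mitosis had a list median of 0.74 and yet none of 35 passed. Of these differences 33 were positive, and the smallest adjusted p of limma was 0.0501, just over the threshold. At W2 1 member was higher (median 0.82) and at W12 32 were (median 1.54), when 9.42% of all genes were higher. No member passed the test of a change between ages. Plk1, a kinase of mitosis, read 7.79, 8.06, 7.71 and 8.80 in Xb130+/+ and 8.80, 8.73, 9.57 and 9.12 in Xb130-/- mice, with a difference of 0.96 (SE 0.43, adjusted p = 0.183). The list mean was 7.90, 8.06, 7.73 and 8.66 in Xb130+/+ and 8.64, 8.46, 9.08 and 8.88 in Xb130-/- glands, so that Xb130+/+ mouse 4 lay among the Xb130-/- mice. Without that mouse 6 of the 35 genes were higher, and 7 were higher with the W4 arrays alone. The highest list mean was that of Xb130-/- mouse 3, whose thymocyte markers were also the highest, and the part of thymocytes in it was not tested. None of 35 DNA replication genes was called (median 0.02).

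Where genes of the citrate cycle and respiratory complex I were called, all but 1 were lower, each by a small amount. Of 30 genes of the citrate cycle and pyruvate use 11 fell and 1 rose, with a median of −0.21. Pdk1, a kinase that inhibits pyruvate dehydrogenase, fell by 0.56, the pyruvate carboxylase Pcx by 0.51, Idh3a by 0.41 and the dehydrogenase subunit Pdhb by 0.40. The exception was Fh1, fumarate hydratase, at 11.26 to 11.46 against 11.74 to 12.06 (0.51, SE 0.08, adjusted p = 0.000332). Of 33 subunits of respiratory complex I 11 fell and none rose, Ndufa1 (−0.57) and Ndufs1 (−0.38) most, with a median of −0.20. The list mean was 10.35 to 10.44 in Xb130+/+ and 10.12 to 10.29 in Xb130-/- glands. These calls rest on small differences. Without Xb130-/- mouse 3, 5 genes of the citrate cycle and 2 of complex I were lower, while with the W4 arrays alone the counts were 4 and 3. The citrate cycle had 7 lower genes without Xb130+/+ mouse 2 or 4 or Xb130-/- mouse 4. Complex I had 2 to 5 without Xb130+/+ mouse 2, 3 or 4 or Xb130-/- mouse 2 or 4. Of 24 genes of respiratory complexes III and IV 3 fell, Uqcr11 most (−0.40), and the cytochrome oxidase subunit Cox6b2 rose by 0.51. The 3 decreases became 1 without Xb130+/+ mouse 2, 3 or 4 or Xb130-/- mouse 2, 3 or 4, and 0 with the W4 arrays alone, but 5 were called without mouse 1 of either genotype and with arrays scaled by their medians. Of 10 ATP synthase genes 1 fell, Atp5e (−0.41), and of 21 glycolysis genes 2 fell, Pfkl most (−0.26), and 1 rose, none of them called with the W4 arrays alone. Over all genes tested 4.35% were lower and 5.08% higher, so these few calls do not set either list apart. The means of 13 adipocyte markers were 10.39 to 10.61 in Xb130+/+ and 9.93 to 10.59 in Xb130-/- glands, with no member called, and the part of thymocyte RNA in Xb130-/- mouse 3 was not tested.

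Lipid synthesis and storage genes were lower in 8 of 28 cases and higher in none (median −0.23). Acss2, which activates acetate, fell by 0.91, Fasn, the fatty acid synthase, by 0.73, the acetyl-CoA carboxylases Acaca by 0.70 and Acacb by 0.77, and Acly, which makes acetyl-CoA from citrate, by 0.51. The carbohydrate-responsive factor Mlxipl fell by 0.72, and Pnpla3 and Me1 were the other lower members. Without Xb130+/+ mouse 2 or Xb130-/- mouse 4, 3 were lower, and 5 were without Xb130+/+ mouse 4 or Xb130-/- mouse 2 or 3. The list mean was 10.62, 10.50, 10.40 and 10.33 in Xb130-/- mice 1 to 4, and their adipocyte marker means were 10.59, 10.33, 9.93 and 9.96. These lists share 4 genes, none of them called, and the part of adipocyte RNA in the lipid genes was not tested. In cholesterol synthesis 3 of 19 were higher, Hsd17b7 (0.64), Fdps (0.53) and the regulator Srebf2 (0.43), and none of them was called without Xb130-/- mouse 4. There was 1 higher member without Xb130+/+ mouse 1 or 2 or Xb130-/- mouse 1 or 3, and 5 without Xb130-/- mouse 2. Of 23 genes of fatty acid oxidation 3 fell, Hadh (−0.31), Etfb (−0.29) and Hadha (−0.28), and 1 was called without Xb130-/- mouse 3 or Xb130+/+ mouse 4.

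Protein synthesis genes were also lower where they changed. Of 19 cytosolic tRNA synthetases 6 fell, from −0.31 (Eprs) to −0.21 (Rars), and of 16 mitochondrial ones 4 fell, Ears2 most (−0.39). The mitochondrial ribosome had 10 lower genes of 76, among them Mrpl42 (−0.42) and Mrps28 (−0.39), with 4 without Xb130+/+ mouse 2, 5 or 6 without Xb130+/+ mouse 3 or Xb130-/- mouse 3 or 4, and 3 with the W4 arrays alone. No member of these lists rose, while over all genes tested 5.08% were higher and 4.35% lower. Among 30 chaperones and folding factors of the endoplasmic reticulum 5 were lower, Derl3 most (−0.83), with the mice overlapping in 4 of the 5, and none was called without Xb130-/- mouse 2 or with the W4 arrays alone, and 1 was without Xb130+/+ mouse 2 or 3 or Xb130-/- mouse 3. The cytosolic synthetases had 2 lower genes without Xb130-/- mouse 2 or Xb130+/+ mouse 3 and with the W4 arrays alone, and 3 without Xb130+/+ mouse 2. The mitochondrial ones had 1 without Xb130+/+ mouse 2 or Xb130-/- mouse 3 and with the W4 arrays alone, and 2 without Xb130-/- mouse 1.

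Among cell types other than thyrocytes, mast cell markers were mostly higher. Of 9 measured 6 were higher and 1 was lower, and the list mean was 6.34 to 6.64 in Xb130+/+ and 7.03 to 7.38 in Xb130-/- glands. With the W4 arrays alone, or without Xb130+/+ mouse 1, 4 were higher. Cpa3, a protease of mast cell granules, read 7.19, 7.17, 7.20 and 8.09 in Xb130+/+ and 10, 9.04, 9.59 and 9.24 in Xb130-/- mice (2.06, SE 0.29, adjusted p = 6.23e-05). The granule protease Mcpt4 was 4.69 to 5.69 against 6.73 to 7.64 (2.00, SE 0.30) and Tpsb2 was 5.57 to 6.66 against 7.12 to 7.81 (1.37, SE 0.22). In each of these 3 genes Xb130+/+ mouse 4 was the highest of its group and below every Xb130-/- mouse. Cma1 (0.66), Hdc, which makes histamine (0.52), and Gata2 (0.37) rose as well. Kit, the receptor on which mast cells depend, went the other way, at 10.14 to 10.75 against 9.41 to 9.61 (−0.94, SE 0.09, adjusted p = 9.61e-07). Its ligand Kitl fell by 0.30 (adjusted p = 0.0452), a call lost without any of 7 mice.

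The counts that follow stand beside 5.08% higher and 4.35% lower over all genes tested. Of 12 markers of pericytes and smooth muscle 7 were higher, Cnn1 (0.76), Cspg4 (0.66) and Tagln (0.54) most, with list means of 9.39 to 9.71 and 9.74 to 9.97. Among 15 endothelial markers, Vwf (0.39), Egfl7 (0.32) and Plvap (0.26) rose. None of the endothelial markers was called without Xb130+/+ mouse 1, 2 or 3 or Xb130-/- mouse 2, and 1 was without Xb130-/- mouse 1 or 4, with the W4 arrays alone or with arrays scaled by their medians. Macrophage markers were higher in 4 of 15 cases, Vsig4 (0.71), Cd68 (0.60) and the complement genes C1qc (0.43) and C1qb (0.40), while Mertk fell by 0.30. B cell markers fell in 3 of 11 cases, Ms4a1 most (−0.86), and 1 was called without Xb130+/+ mouse 1 or Xb130-/- mouse 1 and none with the W4 arrays alone. In the list of glia and nerve, S100b fell by 1.04 and Mbp by 0.54, and the neuronal Stmn2 rose by 0.86 (8.01 to 8.36 against 8.88 to 9.15). No member of the fibroblast, neutrophil, dendritic cell, T cell, thymocyte or skeletal muscle lists was called. Genes of MHC class II presentation were higher in 4 of 13 cases, H2-DMb2 most (0.66), but none was called without Xb130-/- mouse 3, Xb130-/- mouse 1 or Xb130+/+ mouse 3. Of 31 interferon response genes 7 fell, among them Rsad2 (−0.89), Ifit1 (−0.69) and Mx2 (−0.48), and Cxcl10 (0.78) and Irf1 (0.49) rose. Between 2 and 10 interferon genes were lower when each W4 mouse was left out in turn, with 2 without Xb130+/+ mouse 1, 3 without Xb130+/+ mouse 2 or 3 or Xb130-/- mouse 1 or 4 and with the W4 arrays alone, and 4 without Xb130-/- mouse 2. Among 49 chemokines and cytokines 5 rose, Cxcl17 most (0.95, 6.34 to 6.76 against 6.90 to 8.22). With Kitl 2 fell, close to the share over all genes, and the larger decrease was that of the eosinophil attractant Ccl11 (−0.88, 9.09 to 9.75 against 8.36 to 9.01). Of the increases 3 were called without Xb130+/+ mouse 3 or 4 or Xb130-/- mouse 1 and with the W4 arrays alone.

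Most of the large differences at W4 were present at the other ages too. At W2, when 4.17% of all genes were higher and 3.28% lower, 13 of the 15 largest increases and 12 of the 15 largest decreases also passed, and at W12, with 9.42% and 10.5%, all 15 and all 15 did. The immediate-early list had 9 higher genes and 1 lower at W2 (median 0.30) and 16 higher at W12 (median 0.44). Each age has its own control mice, so these are separate sets of animals. The genotype difference itself changed from W2 to W4 in 8 genes, 0.0345% of those tested, and 5 of them moved up. Krtap17-1, a keratin-associated protein gene, differed by −0.66 at W2, 1.35 at W4 and 2.33 at W12. It read 7.40 to 7.75 in Xb130+/+ and 8.64 to 9.35 in Xb130-/- mice at W4. Duoxa1 differed by 0.04, 1.26 and 1.71, so its increase was not seen at W2. Car4, a membrane-bound carbonic anhydrase, differed by −1.55 at W2 and −0.08 at W4, and Lrrc26 by −0.46 and 0.48. Gm15998 went from −0.72 to 0.33, the latter not past the test. The other 3 moved down. Dpysl3 went from −0.29 to −1.74, and Foxj1, which drives the making of motile cilia, from 1.17 to 0.19, and Dnah11, an axonemal dynein, from 1.47 to 0.61. The call on Krtap17-1 and that on Car4 held in all 16 fits that left out a W2 or W4 mouse, that on Duoxa1 in 13, that on Dnah11 in 9, those on Foxj1 and Gm15998 in 7 and those on Lrrc26 and Dpysl3 in 2. Without Xb130+/+ mouse 4 at W4, 29 genes passed.

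From W4 to W12 the difference changed in 232 genes (1%), 136 toward higher and 96 toward lower values, and 93 of them were called at W4. Slc34a2 grew from 2.21 at W4 to 4.58 at W12, and Hs3st4, a relative of Hs3st3a1, from 0.93 to 2.89. Slc7a11, the cystine transporter, went from 0.84, not past the test at W4, to 2.98. Others had larger differences at W12, and that of Ly6i changed its sign. Coch differed by 0.12 at W4 and 2.02 at W12, the surface protein gene Ly6i by −0.62 and 2.38, Them5 by 0.60 and 2.62, the prostaglandin receptor Ptgdr by 0.49 and 2.33, and Mansc4 by 0.12 and 2.02. The difference was smaller at W12 for Rgs7. Rgs7, a regulator of G proteins, was 8.46 to 8.83 in Xb130+/+ and 9.31 to 10.36 in Xb130-/- mice at W4 (1.28, SE 0.18) and differed by 0.12 at W12, a change with adjusted p = 0.031. The microRNA gene Mir29a went from 0.85 to −0.74, and Ptgds, a prostaglandin synthase, from 0.26, not past the test at W4, to −1.01. Other genes were further below the controls at W12 than at W4. Cnpy1 went from −0.53 to −1.68, Hlf from −0.39 to −1.68, A330076H08Rik from −0.17 to −1.32, Cdh19 from −0.10 to −1.26 and Glb1l2 from −0.02 to −1.24. Calls on 12 of these 16 genes held in all 16 fits that left out a W4 or W12 mouse, while that on Cdh19 held in 15, on Rgs7 in 9 and on Hlf and Glb1l2 in 3. Bbox1 shrank from −1.36 to −0.33, Tgfbi grew from 1.09 to 1.94, Slc26a4 from 1.01 to 1.85 and Adcy8 from 1.54 to 2.55, each of these past the test of the change.

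A total of 623 genes were called at W4 and at neither other age. The largest difference among them was 1.23, and a call at 1 age is no test of a difference between ages.

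**Figure D5:**
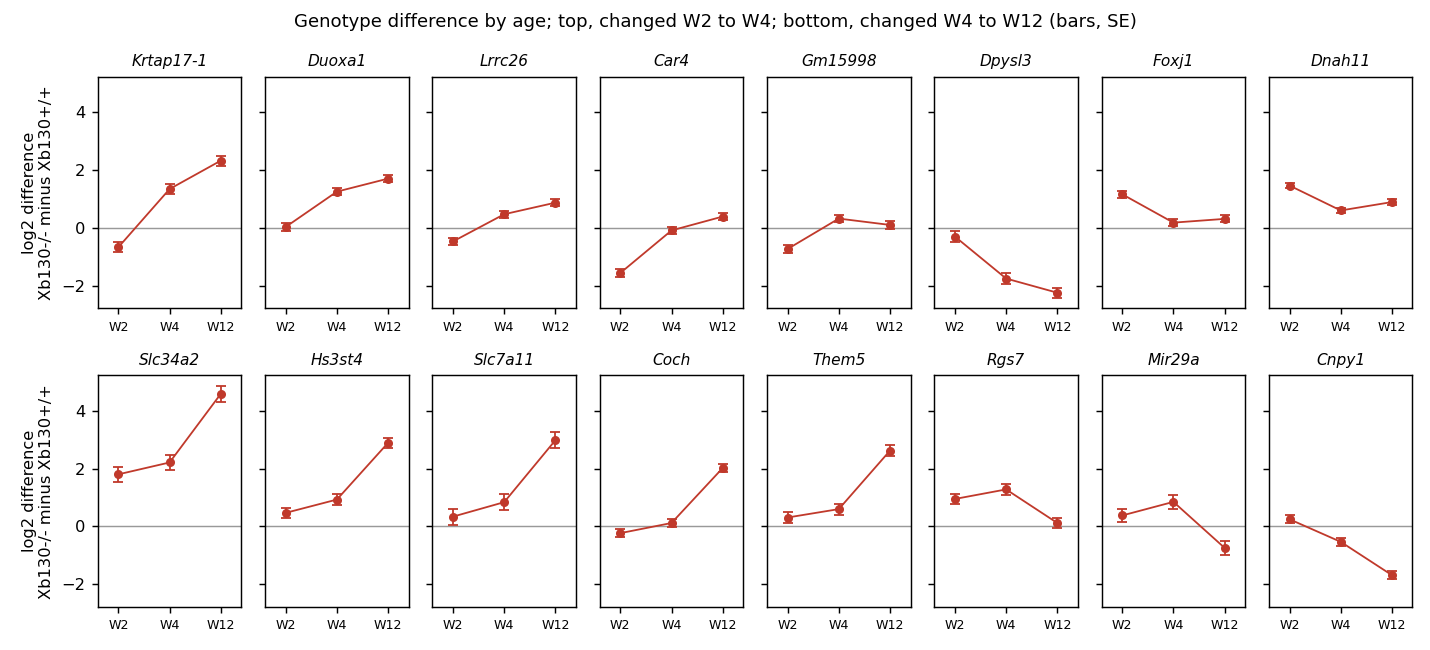
Genotype difference on the log2 scale (y axis, Xb130-/- minus Xb130+/+, bars for the SE) for the 3 ages on the x axis for 8 genes whose difference changed from W2 to W4 (top) and 8 whose difference changed from W4 to W12 (bottom). Krtap17-1 goes from −0.66 to 1.35 to 2.33, and Rgs7 from 1.28 at W4 to 0.12 at W12.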

How the data were processed

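Whole-gland thyroid RNA of 24 males, with 4 mice per genotype and age (W2, W4 and W12, the last labelled 3 months), was measured on whole-transcript mouse gene arrays. The deposited values are log2 expression values that the authors computed by robust multiarray average in the oligo package, with background correction, quantile normalisation over all arrays and median polish. Its version is not given in the sources. Quantile normalisation holds the arrays to a common distribution, so a shift of most genes in a gland would not be seen.

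Groups were taken from the sample labels. Of 25206 probe sets, 2021 had no gene symbol and stayed out, and the other 23185 matched RefSeq genes (GRCm38.p6) by gene number. The test was that of limma 3.58.1 (R 4.3.3) on all 24 arrays, with a mean for each genotype and age. Residual degrees of freedom were 18 and prior ones 2.85, and the Benjamini-Hochberg adjustment ran over all genes, with a threshold of 0.05. The same fit gave the tests of change between ages. p-values weigh a difference against the spread between mice within groups, pooled over all genotypes and ages, and the labels give no batch. On simulated data for the W4 comparison over 23185 genes, 58% of changes of 0.5 and 92% of changes of 1 were recovered, with 13 unchanged genes among 163 called. The simulation changed 100 genes by each size, far fewer than were called at W4, so these shares need not hold for the real comparison.

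Members and gene lists were chosen with earlier results of these data known, and many lists follow processes named in the study of these mice, which makes their directions no independent evidence. The text names Afap1l2, the 15 largest increases and decreases with complete separation, the largest called members of each list, all members of 5 short lists, paralogs, and up to 8 genes in each direction whose difference changed most between ages. Further list members were named after their values were seen. Members of a list that have no probe set were not analysed here.

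Alternatives were the W4 arrays alone with and without their own quantile normalisation, weights for arrays, a variance model with a trend and robust to outliers, leaving out genes under the 30th percentile of mean expression, scaling by array medians, stricter thresholds (0.01, or at least 1.5-fold), all probe sets and leaving out each W4 mouse in turn. Leaving out W2 and W12 mice was added after the data were seen.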

Additional observations from a re-analysis of the deposited data

Results flagged for a closer look

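Within each group of 4 W4 mice, a mouse was looked at again where its distance to the nearest other mouse as a share of the group's whole range exceeded Dixon's critical value for 4 samples. This held for 47 of 606 groups of readings, genes named above and marker lists together, where chance alone gives about 5%.

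Xb130+/+ mouse 4 stood apart most often. It was above the other Xb130+/+ mice in Dcpp1 (9.78, the others 6.43 to 7.0), Dcpp2 (6.80), Upk3bl (9.70), Cpa3 (8.09), Adcy3 (9.27), Kcnq1 (8.92), Loxl4 (8.45) and Hadh (12.71). It was below them in Ccl11 (9.09), Derl3 (10.48), Espn (8.33), Mx2 (5.55) and Sesn2 (8.70), and its mean of thymocyte markers was 6.79 against 6.22 to 6.29.

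The other Xb130+/+ mice stood apart less often. Mouse 1 was high in Rsad2 (11.18) and Btc (7.95) and low in Calcr (5.42), Coch (5.47) and Fdps (7.38), mouse 2 was low in C1qc (8.63), and mouse 3 was high in A330076H08Rik (7.58) and low in Ajuba (7.45) and in the means of macrophage (8.21) and neutrophil markers (5.44).

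Among the Xb130-/- mice, mouse 1 was high in the means of airway (8.17, the others 6.64 to 6.80) and chondrocyte markers (7.40) and in Timp1 (8.95) and low in Tgfbi (12.00, the others 12.20 to 12.23). Mouse 2 was high in Ccn2 (13.37), Cdh19 (6.64) and Vldlr (10.46) and low in Chsy1 (10.56), Cubn (4.87), Hsd17b7 (8.56) and Sdc1 (8.98). Mouse 3 was high in Acaca (10.78), Akt1 (11.43), F8 (7.81), Tcf7l2 (9.51) and the mean of thymic epithelium markers (8.99, the others 8.29 to 8.38). It was low in Cftr (7.17), Mir29a (3.66), Smad7 (9.14), Vsig4 (4.97) and the mean of endothelial markers (10.50). Mouse 4 was high in Dlg5 (10.09) and Plaur (8.16). The part of thymus, airway or cartilage tissue in these readings was not tested.

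The genotype difference of some named genes changed with age by limma's test of the change. From W2 to W4 it moved by 2.01 in Krtap17-1, 1.47 in Car4, 1.22 in Duoxa1, 1.05 in Gm15998, 0.94 in Lrrc26, −0.86 in Dnah11, −0.98 in Foxj1 and −1.45 in Dpysl3. From W4 to W12 it moved upward by 3.00 in Ly6i, 2.37 in Slc34a2, 2.14 in Slc7a11, 2.02 in Them5, 1.96 in Hs3st4, 1.90 in Coch, 1.90 in Mansc4 and 1.84 in Ptgdr. Smaller upward changes were 1.38 in Ms4a1, 1.38 in Plat, 1.19 in F5, 1.04 in Bbox1, 1.01 in Adcy8, 0.86 in Tgfbi, 0.84 in Slc26a4, 0.75 in Itga4 and 0.69 in Hdc. It moved downward by −1.59 in Mir29a, −1.29 in Hlf, −1.27 in Ptgds, −1.21 in Glb1l2, −1.17 in Rgs7, −1.16 in Cdh19, −1.15 in Cnpy1 and −1.14 in A330076H08Rik.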

How the results depend on the processing

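The count of genes changed at W4 (2187, with 1178 higher and 1009 lower) was 1207 (776 and 431) with the W4 arrays fitted alone and 1276 (759 and 517) with these 8 arrays also quantile normalised among themselves. These fits have fewer samples to estimate the spread. With a change of at least 1.5-fold required, 612 genes passed (428 and 184), and 1081 did at an adjusted p under 0.01 (678 and 403). Leaving out each W4 mouse in turn gave 1485 to 2305 genes, 857 to 1165 of them higher and 628 to 1140 lower, with 628 lower genes without Xb130+/+ mouse 2. Scaling by array medians (978 higher and 1096 lower), all probe sets, weights for arrays, no dim genes, and a variance model with a trend and robust to outliers gave counts within 1.5 times of the main one. Genes whose difference changed from W2 to W4 numbered 2 to 29 in place of 8 when a W2 or W4 mouse was left out, and those that changed from W4 to W12 numbered 102 to 290 in place of 232 when a W4 or W12 mouse was left out. The difference in Afap1l2 kept its direction and call in each alternative run. Of 231 named genes called at W4, 88 lost their call in at least 1 setting, 63 with the W4 arrays alone, and none reversed. No paired analysis was possible because the mouse numbers of the samples link no Xb130-/- mouse to an Xb130+/+ mouse. With 4 mice in each group, small differences can be missed, and signal over background is not known because only processed values were used.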
